A study of Homo sapiens with 6 samples.

Results

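The 40 genes described here encode the proteins that license and copy chromosomal DNA, the enzymes that supply its building blocks, and E2F transcription factors that control both. They were taken as the rows of the gene tables whose symbol stood on a list of 40 drawn up by function, and each symbol matched exactly 1 of the 32353 genes in the count table. All 40 passed the filter on low counts, which left 17887 genes for testing. Expression was measured by RNA sequencing of total RNA from CAL27 cells, an established human line of tongue squamous cell carcinoma. There were 3 libraries of cells with a control plasmid and 3 of cells overexpressing RBM24, a protein that binds RNA and is known for regulating splicing and messenger stability. Both groups were otherwise described alike; the time after plasmid delivery, any selection and whether libraries came from separate cultures are not given in the sources used here, so the p-values rest on the scatter of these libraries alone, and that scatter may be technical. The study asked how RBM24 alters the transcriptome of these cells, and the comparison below asks whether transcripts of the replication program moved with it.

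Replication starts at origins. The origin recognition complex, with CDC6 and CDT1, loads MCM2 to MCM7 as an inactive ring around DNA in G1 phase. This step is called licensing, and geminin (GMNN) blocks it later in the cycle by binding CDT1. In S phase the ring becomes an active helicase when CDC45 and the GINS complex join it, and polymerases, the sliding clamp PCNA and its loader then copy both strands. Many of these genes are transcribed in late G1 by E2F factors, which are held back by the retinoblastoma protein until cyclin-dependent kinases release them, so their summed messenger level is widely read as a sign of proliferation.

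The libraries held 53558773 to 68804210 gene counts. RBM24 itself stood at 2.35, 2.96 and 3.50 CPM (counts scaled to library size with TMM factors) in the control libraries and at 125, 109 and 124 CPM in the RBM24 libraries, so every library matched its label. Control library 1 stood apart on the main principal component, at -33.4, against -4.95 and -0.0363 for the other control libraries and 9.28 to 15.4 for the RBM24 libraries. All 10 squamous keratinocyte markers were found, with a summed level of 615 to 645 FPKM (fragments scaled to gene length and library size) in the control and 706 to 718 in the RBM24 libraries. The part of this difference in the results was not tested. COL3A1 was not matched, and no other fibroblast, immune or endothelial marker averaged above 1.44 FPKM. The sums over these 3 lists lay between 0.50 and 1.96 FPKM in every library.

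The E2F-type letters in the promoters are shown first, since they tie the list to the factors it is named for. RefSeq promoter windows (GRCh38.p14, 250 bases before to 50 after the start site) were found for 36 of the 40 genes. They were searched on both strands for TTTCGCGC, TTTGGCGC and TTTCCCGC, and 20 of the 36 (55.6%) held at least 1 of these words. The share was 2.79% of all 27305 windows of that length and 4.55% of the 11643 windows of tested genes. By word, 5 windows held TTTCGCGC (13.9%, against 0.546% of all windows and 1.00% of those of tested genes), 8 held TTTGGCGC (22.2%, against 0.659% and 1.05%) and 10 held TTTCCCGC (27.8%, against 1.66% and 2.60%). TTTGAA, a word of the CHR element of many mitotic genes, was found in 1 of the 36, RRM1 (2.78%). It was found in 15.4% of all windows and 9.93% of those of tested genes. This word is shorter and holds fewer G and C bases than the E2F-type words, and the base composition of the windows was not compared. An E2F-type match lay wholly before the start in 15 genes, and in 11 of these 15 its nearest base was within 60 bases of the start. The list is partly named for E2F control, so this share describes it and is no independent evidence; a match is not a measured binding site.

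The windows below are those of the 6 genes with a match before the start and the smallest p in the comparison of RBM24 with control, and of MCM6, added after its matches were seen because it held 4. The windows of TYMS, POLA2, E2F1 and UHRF1 overlap an exon of another annotation (GENCODE 29) and are shown at no more than 30 bases. Capitals mark the E2F-type words, read 5′ to 3′ on the gene's own strand. TYMS lies at chr18:657603-657632 (plus strand), E2F2 at chr1:23531242-23531301 (minus), POLA2 at chr11:65261898-65261927 (plus), MCM3 at chr6:52284883-52284942 (minus), E2F1 at chr20:33686387-33686416 (minus), UHRF1 at chr19:4909476-4909500 (plus) and MCM6 at chr2:135876496-135876621 (minus).
TYMS: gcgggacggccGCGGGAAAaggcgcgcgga
E2F2: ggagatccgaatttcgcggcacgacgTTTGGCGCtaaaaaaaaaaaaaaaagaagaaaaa
POLA2: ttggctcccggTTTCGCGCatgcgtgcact
MCM3: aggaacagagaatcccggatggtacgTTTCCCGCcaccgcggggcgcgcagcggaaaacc
E2F1: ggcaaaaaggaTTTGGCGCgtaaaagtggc
UHRF1: gccgagttttcGCGGGAAAaaaatc
MCM6: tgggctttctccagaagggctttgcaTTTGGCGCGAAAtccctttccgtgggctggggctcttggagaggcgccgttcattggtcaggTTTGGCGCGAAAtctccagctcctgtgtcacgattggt
In TYMS and UHRF1 the word runs on the opposite strand and so appears as its reverse complement. MCM6 carries, at both of its positions, TTTGGCGC and the reverse complement of TTTCGCGC overlapping in 1 longer run. The positions of all matches are drawn in the plot of E2F-type matches.

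**Figure D1:**
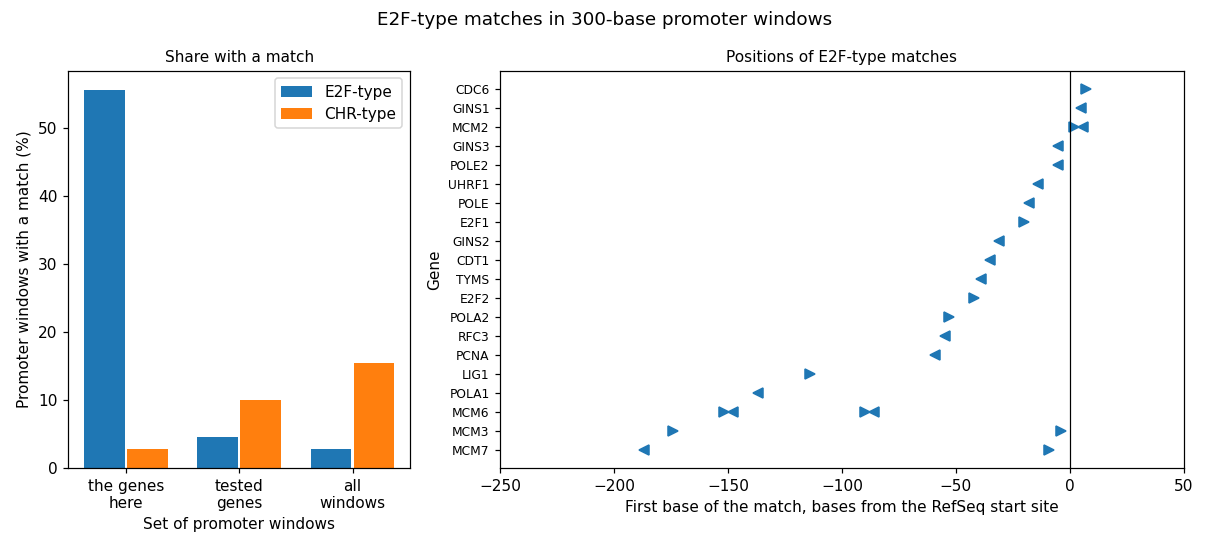
Left, the percentage of 300-base promoter windows with a match, for the genes described here (36 windows), tested genes (11643) and all windows (27305); blue bars are E2F-type words and orange bars the CHR-type word. Right, the first base of each E2F-type match in the 20 genes that had one, in bases from the RefSeq start site, with arrowheads for the strand; most lie close to the start.

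Levels were compared between genes on the deposited FPKM scale, which is per gene length, as the mean of all 6 libraries ± SD. PCNA, the ring that tethers polymerases to DNA, had the highest FPKM of the 40 at 190 ± 4.12. E2F2, an activator E2F, had the lowest at 1.09 ± 0.165. The MCM ring contains each of its subunits once, but their FPKM values differed. MCM7 stood at 104 ± 3.76, MCM3 at 72.8 ± 4.28 and MCM2 at 51.3 ± 3.52 FPKM. Below them were MCM4 at 49.7 ± 2.35, MCM6 at 41.3 ± 1.10 and MCM5 at 33.2 ± 2.09 FPKM. In that order only MCM2 and MCM4 overlapped between libraries. GINS also holds 1 copy of each subunit, and GINS2 at 28.3 ± 0.729 FPKM lay above GINS1 (9.28 ± 0.361), GINS3 (6.22 ± 0.283) and GINS4 (3.12 ± 0.152), with no overlap between neighbours. FPKM depends on the transcript length the authors used, which no source used here states. In counts, which are not divided by length, MCM7 also led the ring (484 CPM in the controls). MCM6 (188 CPM) and not MCM5 (261 CPM) was then its lowest subunit. The GINS order was the same in counts. These orders therefore hold for the deposited FPKM values and were not shown to be orders of messenger number.

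Levels differed within the other groups too. The clamp loader subunit RFC2 (46.2 ± 1.43 FPKM) stood above RFC3 (23.7 ± 1.42), RFC4 (21.2 ± 0.537) and RFC5 (16.8 ± 0.516), where RFC3 and RFC4 overlapped. Of the polymerase genes, POLA2, the accessory subunit of polymerase alpha, stood at 21.2 ± 1.41 and its catalytic partner POLA1 lowest at 3.09 ± 0.152. In counts not divided by length, PRIM1 (19.9 CPM in the controls) was the lowest, and POLA1 stood at 52.1 CPM. Among the nucleotide enzymes the thymidine kinase TK1 led in FPKM at 111 ± 4.86, before the thymidylate synthase TYMS (78.5 ± 5.79). The ribonucleotide reductase subunits RRM1 (49.6 ± 1.63) and RRM2 (32.5 ± 0.803) followed. In counts RRM2 led instead, at 320 CPM in the controls, before TK1 (227), RRM1 (225) and TYMS (194). The FPKM order therefore rests on the length used. E2F1 was the most abundant of the 4 E2F genes on the list at 19.8 ± 1.16 FPKM, above the atypical repressors E2F7 (4.02 ± 0.404) and E2F8 (3.47 ± 0.478), which overlapped each other. The plot of levels in each library shows that these differences between genes were far wider than those between the groups.

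**Figure D2:**
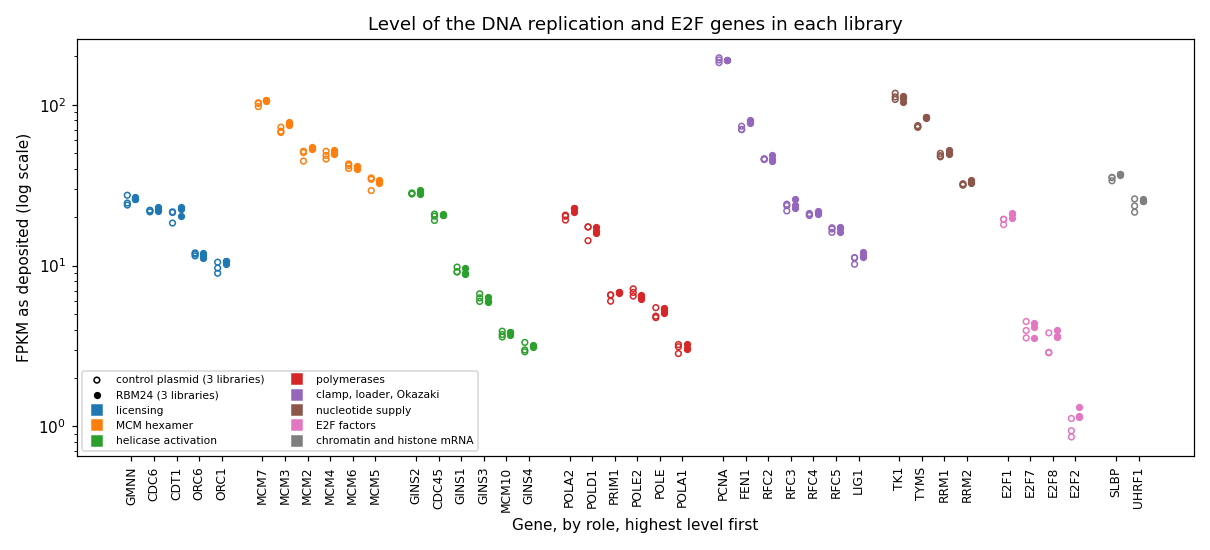
Deposited FPKM on a log axis for each of the 40 genes, grouped by role and ordered by level; open circles are the 3 control libraries and filled circles the 3 RBM24 libraries. Levels run from 1.09 (E2F2) to 190 (PCNA) as means of the 6 libraries, and open and filled points lie side by side for each gene.

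With RBM24, none of the 40 genes passed the test, 0 higher and 0 lower at the 0.05 threshold on edgeR's adjusted p (quasi-likelihood F test, adjusted by Benjamini-Hochberg over all 17887 genes). Of all tested genes 1.54% passed, 0.855% higher and 0.682% lower. The smallest adjusted p of the 40 was 0.107, for TYMS. At an unadjusted p under 0.05, 5 of the 40 (12.5%) were higher and 0 lower, against 6.62% of all tested genes higher and 6.40% lower, 13.0% together. By other tools, DESeq2 called 1 of the 40 higher and 0 lower (TYMS; 1.19% and 0.895% of all genes), limma-voom called 0 and 0 (0.883% and 0.671%) and limma on log2(FPKM + 1) called 0 and 0 (0.257% and 0.0224%). In edgeR, scaling by total counts alone called 1 and 0 (TYMS; 1.25% and 0.593% of all genes), and leaving out the low-count filter called 0 and 0 (0.943% and 1.05%). In both directions together the unadjusted share was near that of all genes; in the higher direction alone it was above. The calls of DESeq2 and of total-count scaling are a single gene, TYMS, and carry no statement about the list. In bulk RNA, a change in the share of cells in S phase and a change in messenger per cell cannot be told apart.

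What the data do give is a narrow range for each change. The ranges rest on the scatter of these libraries, as the p-values do, and that scatter may be technical. Fitted log2 changes, RBM24 over control throughout, ran from -0.12 (POLE2) to 0.28 (E2F2), with 25 positive and 15 negative and a median of 0.021, beside -0.004 over all tested genes. The 95% intervals, each for 1 gene and not adjusted for their number, lay within 1.2-fold in either direction for 38 of the 40 genes and within 1.5-fold for all 40. The same held for 48.4% and 75.5% of all tested genes, which are less abundant, with a median of 12.7 CPM against 76.7 CPM for the 40. The outermost bounds over the list were 0.837-fold and 1.40-fold. Both genes that reached past 1.2-fold were E2F genes, E2F2 and E2F8, of low level and wide SE (0.0994 and 0.0891, against a median SE of 0.0527). TYMS (upper bound 0.26 on the log2 scale) and POLE2 (lower bound -0.26) lay just inside the limit.

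**Figure D3:**
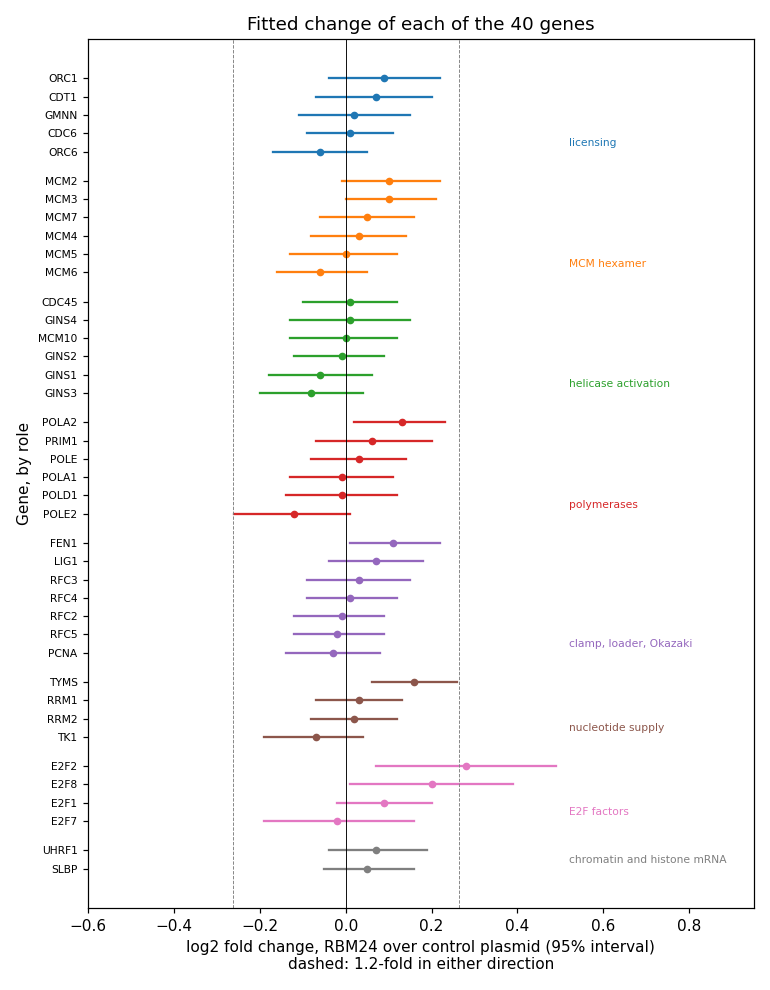
Fitted log2 fold change of each gene, RBM24 over control plasmid, with its 95% interval from edgeR, coloured by role; dashed lines mark 1.2-fold. Intervals of 38 of the 40 genes stay between the dashed lines, and those of E2F2 and E2F8 extend above.

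In the libraries themselves, all RBM24 values lay above all control values for 6 genes (15.0%, against 9.53% of all tested genes) and below for 2 (5.00%, against 8.62%). The higher ones were MCM2, MCM3, POLA2, FEN1, TYMS and E2F2, and the lower ones ORC6 and POLE2. The remaining 32 overlapped.

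None of the 5 licensing factors passed, and their median log2 change was 0.022. ORC1, the ATPase subunit of the origin recognition complex, stood at 31.2, 33.2 and 34.9 CPM in the controls, in the order of their numbers here and below, against 35.9, 34.3 and 35.6 with RBM24. Its control libraries 1 and 2 were the lowest, control library 3 lay within the RBM24 values, and its change of 0.09 (SE 0.0604; interval -0.04 to 0.22) did not pass (edgeR adjusted p = 0.572). ORC6, which joins the complex most loosely, was at 55.3, 56.0 and 55.2 CPM against 53.7, 51.0 and 54.8 with RBM24, lower without overlap by a margin smaller than the spread among the RBM24 libraries (log2 change -0.06, adjusted p = 0.659). CDT1, the loader of the MCM ring, ran from 56.6 to 65.1 CPM in the controls and from 59.7 to 68.3 with RBM24 (0.07, adjusted p = 0.705), and its inhibitor GMNN from 62.6 to 75.7 and from 68.3 to 70.5 (0.02, adjusted p = 0.922). CDC6, which works with CDT1, ran from 125 to 130 CPM and from 124 to 131 (0.01, adjusted p = 0.958).

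Of the MCM ring, MCM3 and MCM2 had the highest fitted changes and separated libraries, and 4 of the 6 subunits were positive (median 0.041). MCM3 stood at 273, 275 and 282 CPM in the controls and at 308, 290 and 293 with RBM24 (0.10, SE 0.0491, adjusted p = 0.400). MCM2 stood at 235, 262 and 258 CPM against 268, 271 and 272 (0.10, SE 0.0527, adjusted p = 0.421). For MCM2 control library 1 was the low one, and the other controls lay just under the RBM24 libraries. Without that library the change of MCM2 was 0.056 in place of 0.104, and the median of the ring 0.023 in place of 0.041. In GENCODE 29 it shares 22.7% of its exonic bases with an opposite-strand gene at 0.359 CPM. MCM6 was at 193, 183 and 189 CPM against 183, 177 and 184 (-0.06, SE 0.0475, adjusted p = 0.678), so the subunits of 1 ring had fitted changes of both signs. MCM7, the most abundant, ran from 476 to 497 CPM in the controls and from 496 to 506 with RBM24 (0.05, adjusted p = 0.731), and MCM5 from 237 to 281 and from 252 to 269 (adjusted p = 0.986). MCM4 ran from 357 to 382 and from 372 to 391 CPM (0.03, adjusted p = 0.855). The control value of MCM5 was the most variable of the ring, again with control library 1 lowest.

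The genes that activate the helicase had the median nearest 0 of the role groups, -0.009, and a range from -0.08 to 0.01. GINS3 stood at 34.1, 35.5 and 36.3 CPM in the controls and at 32.7, 33.0 and 34.5 with RBM24 (-0.08, SE 0.0576, adjusted p = 0.599), and the groups overlapped. GINS1 ran from 41.5 to 43.1 CPM and from 39.6 to 42.4 (-0.06, adjusted p = 0.707). GINS2 (-0.01, adjusted p = 0.948) and GINS4 (0.01, adjusted p = 0.972) lay closer still. CDC45 and MCM10, which help to switch the loaded ring on, had adjusted p values of 0.961 and 0.986, and none of these 6 genes separated by group.

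The polymerase genes had fitted changes of both signs (3 positive and 3 negative, median 0.012). POLA2, which ties polymerase alpha to primase, stood at 119, 127 and 120 CPM in the controls and at 136, 135 and 128 with RBM24, without overlap (0.13, SE 0.0492, interval 0.02 to 0.23; unadjusted p = 0.0216, edgeR adjusted p = 0.279). The POLA2 value depends on how reads were shared, since 35.1% of its exonic bases in GENCODE 29 lie on the same strand as another tested entry with 33.0 CPM. That entry had a log2 change of -0.12 (edgeR adjusted p = 0.419). Whether shared reads enter the change of POLA2 was not tested. POLE2, the accessory subunit of the leading-strand polymerase, stood at 21.3, 22.2 and 22.6 CPM against 21.0, 20.1 and 19.5, also without overlap and in the other direction (-0.12, SE 0.0623, interval -0.26 to 0.01; adjusted p = 0.412). PRIM1, the primase that lays down RNA primers, was at 20.9, 18.9 and 20.0 CPM against 20.9, 20.8 and 20.8, at the top of the control range (0.06, adjusted p = 0.727). It shares 1.35% of its exonic bases on the same strand with NACA, at 933 CPM, and 14.9% with another same-strand entry at 14.4 CPM, so its count is uncertain. The log2 changes of NACA and of that entry were -0.08 and -0.1. POLA1 (-0.01, adjusted p = 0.977) differed by less than its spread, and POLE and POLD1, the catalytic subunits of the leading-strand and lagging-strand polymerases, overlapped (0.03 and -0.01).

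Among the clamp, the clamp loader and the enzymes that join Okazaki fragments, the flap endonuclease gene FEN1 was the one whose groups did not overlap. It was at 172, 178 and 165 CPM in the controls and at 191, 181 and 185 with RBM24 (0.11, SE 0.0494, interval 0.01 to 0.22; unadjusted p = 0.0352, edgeR adjusted p = 0.334). It shares 6.70% of its exonic bases with TMEM258 on the opposite strand and 1.98% with FADS2 on the same strand. The ligase LIG1, which acts after FEN1, was at 74.8, 81.4 and 78.4 CPM against 85.6, 81.7 and 78.9 (0.07, SE 0.0517, adjusted p = 0.615), with overlap. PCNA stood at 307, 283 and 284 CPM against 286, 286 and 284: control library 1 was the high one and the other 5 libraries were nearly equal (-0.03, SE 0.0504, interval -0.14 to 0.08; adjusted p = 0.857). RFC2, RFC3, RFC4 and RFC5 overlapped between the groups, and the 7 genes had a median of 0.014.

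The smallest p of the list belonged to the nucleotide group. TYMS (ENSG00000176890.16, GRCh38 chromosome 18, 657604 to 673578, plus strand), which makes thymidylate and is the target of fluorouracil, stood at 197, 193 and 192 CPM in the controls and at 218, 215 and 217 with RBM24. The gap between the groups was wider than the spread within either (SD 2.65 and 1.40, n = 3 each), and the fitted change was 0.16 (SE 0.0460, interval 0.06 to 0.26). Its unadjusted p was 0.00296 and its edgeR adjusted p 0.107; over the alternative settings the adjusted p ran from 0.0225 (DESeq2) to 0.371 (without RBM24 library 1). It passed with DESeq2 and with scaling by total counts alone (0.0447). Of its exonic bases 39.1% are shared with ENOSF1 on the opposite strand, at 67.6 CPM, and without a stated strand setting the reads there cannot be told apart; ENOSF1 itself had a log2 change of -0.06 (adjusted p = 0.647).

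The other nucleotide enzymes had no such gap. TK1, which salvages thymidine, was at 221, 240 and 221 CPM against 227, 216 and 205 (-0.07, SE 0.0543, adjusted p = 0.617). The ribonucleotide reductase subunits were among the steadiest of the 40: RRM1 was at 228, 222 and 225 CPM against 226, 227 and 235 (0.03, SE 0.0472, adjusted p = 0.865). RRM2, the subunit whose supply limits the enzyme in S phase, was at 323, 321 and 315 CPM against 321, 321 and 330 (0.02, SE 0.0480, interval -0.08 to 0.12; adjusted p = 0.909). For each of these 3 genes the groups overlapped.

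The 4 E2F genes on the list had the highest median of the role groups, 0.143, and the widest intervals. The E2F genes of the wider list, named after their values were seen, did not pass either: E2F3 (-0.04), E2F4 (-0.04), E2F5 (-0.14, with the RBM24 libraries below the controls) and E2F6 (0.03) had adjusted p values of 0.438 to 0.896. E2F2 (ENSG00000007968.7, GRCh38 chromosome 1, 23506430 to 23531220, minus strand) stood at 5.24, 5.65 and 6.51 CPM in the controls and at 6.84, 7.67 and 6.63 with RBM24, a separation that rested on a small gap between control library 3 and RBM24 library 3 (0.28, SE 0.0994, interval 0.07 to 0.49; unadjusted p = 0.0134, edgeR adjusted p = 0.225). E2F8 was at 13.2, 13.2 and 16.8 CPM against 15.9, 16.2 and 17.5 (0.20, SE 0.0891, adjusted p = 0.358). Control library 3 lay among the RBM24 libraries; without it E2F8 passed (log2 change 0.326, adjusted p = 0.0473), the 1 member called in that fit, beside 0.721% of all genes called higher and 1.10% lower. Without control library 1 or 2 the change of E2F8 was 0.137 in each case (adjusted p = 0.599 and 0.540). E2F1 was at 54.0, 57.5 and 55.6 CPM against 60.3, 61.0 and 56.3 (0.09, SE 0.0527, adjusted p = 0.514), with overlap. E2F7, which like E2F8 represses E2F targets, overlapped and had a fitted change of -0.02, the 1 negative value of the 4. The chromatin and histone messenger genes UHRF1 (from 123 to 142 CPM in the controls and 138 to 143 with RBM24; 0.07, adjusted p = 0.615) and SLBP (70.0 to 73.8 and 73.0 to 75.3; 0.05, adjusted p = 0.685), which maintain DNA methylation and bind histone messengers, overlapped too.

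A median over the 40 genes was taken in each library, which does not measure how far single genes moved together. Their median deviation from the mean of the 6 libraries, on the log2 CPM scale, was -0.019 in control library 1, -0.011 in 2 and 0.000 in 3, and with RBM24 it was 0.036, 0.007 and 0.011. Over all tested genes it was 0.004, -0.001 and 0.003 in the controls and 0.005, 0.000 and 0.002 with RBM24, a narrower range. Control library 1, which stood apart over all genes, held the lowest value for 16 of the 40 genes and RBM24 library 1 the highest for 13. The same counts were not made over all tested genes, so whether they set the list apart was not tested. By group, the MCM ring was low in control library 1 (-0.068), as were the chromatin and histone messenger genes (-0.065, and -0.046 in control library 2), while the E2F factors were low in control libraries 1 and 2 (-0.154 and -0.158) and at 0.080 in control library 3, level with the RBM24 libraries (0.060 to 0.083). Without control library 1 the median change of the 40 was 0.022 and without control library 3 it was 0.036, with 0 and 1 genes called. Of the 36 genes with a promoter window, the 20 with an E2F-type word had a median change of 0.042 (13 positive) and the 16 without 0.012 (9 positive); the difference was not tested.

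**Figure D4:**
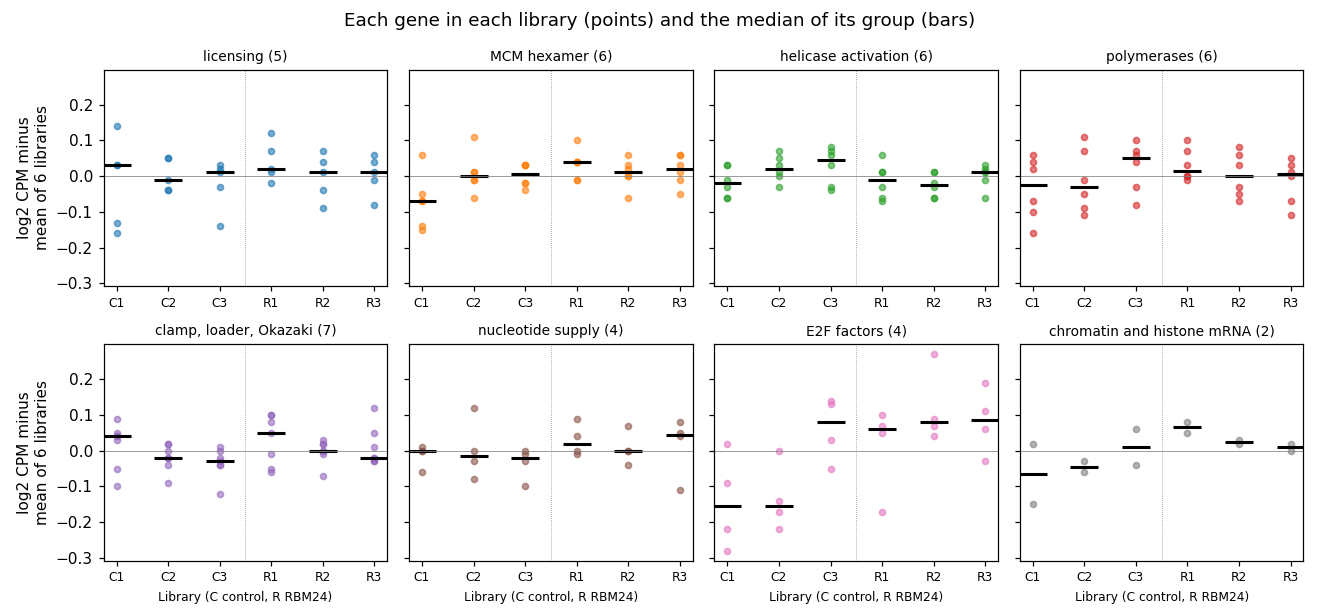
Log2 CPM of each gene minus its mean over the 6 libraries, by role group, for control libraries 1 to 3 (C1 to C3) and RBM24 libraries 1 to 3 (R1 to R3); points are genes and black bars are group medians. The E2F factors have their medians lowest in C1 and C2 (-0.154 and -0.158), the MCM ring in C1 (-0.068) and the chromatin and histone messenger genes in C1 and C2 (-0.065 and -0.046).

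The rest of the pathway was read from a list of 51 further replication and E2F genes, all tested. Of these 1 rose, 0 fell and 50 did not pass, with a median of 0.016 and 29 positive; 7 were higher and 0 lower at an unadjusted p under 0.05 (13.7% of the list). Over all tested genes 0.855% were called higher and 0.682% lower, and 6.62% and 6.40% at the unadjusted threshold. The gene that rose was CCNE1, which encodes cyclin E1, the partner of CDK2 that drives entry into S phase. It stood at 21.3, 23.6 and 20.8 CPM in the controls and at 29.1, 27.0 and 28.1 with RBM24 (0.36, SE 0.0655, interval 0.22 to 0.50; edgeR adjusted p = 0.00958). All RBM24 libraries lay well above all controls. Its call ended without RBM24 library 1 (change 0.337, adjusted p = 0.0631) and on log2(FPKM + 1) (change 0.356, adjusted p at the threshold, and 0.131 without the low-count filter), where the change was nearly as large as the 0.362 of all libraries. CCNE2, the other cyclin E gene, was at 17.4, 15.6 and 16.0 CPM against 15.7, 16.1 and 18.2 (0.03, adjusted p = 0.912); whether the cyclin E genes differ in their change was not tested.

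The next smallest p belonged to genes just outside the threshold, all with separated libraries. Their separation is no independent support, since they were picked by p. Of the 51 genes, 9 lay higher without overlap (17.6%, against 9.53% of all tested genes) and 2 lower (3.92%, against 8.62%). RPA2, a subunit of the single-strand binding complex, stood at 69.0, 70.7 and 67.8 CPM against 79.2, 78.3 and 77.6 (0.18, SE 0.0468, adjusted p = 0.0758). TIMELESS, a fork protection protein, stood at 91.0, 95.8 and 99.9 CPM against 110, 108 and 108 (0.19, SE 0.0491, adjusted p = 0.0795). TFDP1, which encodes the DP partner with which E2F proteins bind DNA, stood at 218, 224 and 234 CPM against 249, 256 and 265 (0.19, SE 0.0502, adjusted p = 0.0795). In DESeq2 these 3, CCNE1 and the histone chaperone gene ASF1B (0.19; named after its value was seen) were the 5 genes called, beside 1.19% of all genes called higher. Of the panel of regulators, the following did not pass: the kinase gene CDC7 (-0.09, adjusted p = 0.595), its activator DBF4 (0.07, adjusted p = 0.652) and the retinoblastoma gene RB1 (-0.05, adjusted p = 0.819). The plot of the other genes shows CCNE1 beyond the rest.

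**Figure D5:**
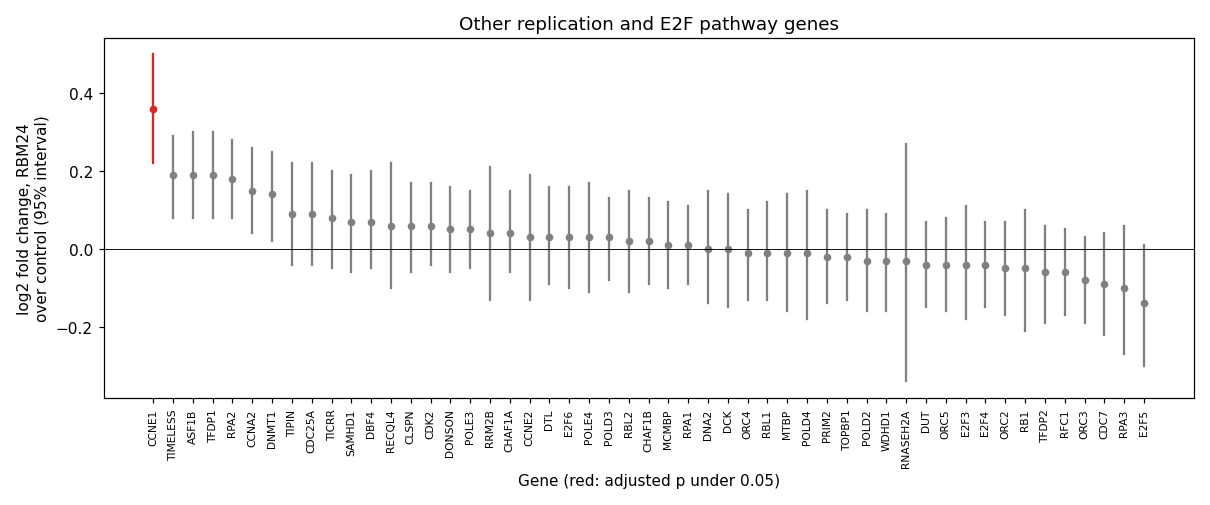
Fitted log2 fold change with 95% interval for 51 further replication and E2F genes, ordered by size, RBM24 over control plasmid. CCNE1, in red at 0.36, is the gene past the adjusted threshold; the other 50, in grey, did not pass.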

How the data were processed

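HISAT2 alignment and the GRCh38 build come from the submitters' processing notes; the aligner's version, the gene counter, its annotation and strand setting are not given in the sources used here. Raw counts per gene were deposited by the authors, who also deposited a table of FPKM values, which by their name are scaled for gene length and library size. The table headers call the controls NC, taken here as the cells with the control plasmid.

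Counts were analysed with edgeR 4.0.16 in R 4.3.3: filterByExpr, TMM factors (0.976 to 1.02), a quasi-likelihood F test on group alone (4 residual degrees of freedom), and Benjamini-Hochberg adjustment over 17887 genes. Intervals use the test's degrees of freedom. Alternatives used DESeq2 1.42.0 and limma 3.58.1, other scalings and filters, FPKM, the replicate block and each library left out. The script was tested on simulated data with changes of 1.3-fold to 4-fold. All genes were given the same scatter, and the changes were placed only in genes with many counts. Recovery for genes of wider scatter, such as E2F2 and E2F8, was therefore not measured. The script recovered 80% of 50 genes changed 1.3-fold and 100% of 50 changed 1.5-fold. Smaller changes were not simulated, so this does not tell how often changes of the size fitted here would be called. No library was a copy of another (chi-square per gene between libraries 5.29 to 41.5).

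The members and lists were chosen with earlier results of these data known. Within each role group, values per library were given by rule for the 3 genes with the smallest p and those of highest and lowest FPKM, and in the wider list for called genes, the 4 of smallest p and a panel of 6 regulators. A further listed gene is not reported here. GENCODE 29 (GRCh38) gave coordinates and overlaps: 10 of the 40 genes share exonic bases with another tested gene. Promoter windows come from RefSeq.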

Additional observations from a re-analysis of the deposited data

How the results depend on the processing

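The counts of 0 genes lower, for the 40 and for the 51 others, held under all 17 alternatives. The count of the 40 called higher was 1 with DESeq2 and with total counts, and 0 to 1 with each library left out. The count of the 51 others called higher was 5 with DESeq2 and with total counts (1.19% and 1.25% of all genes), 4 with no low-count filter (0.943%), 0 on log2(FPKM + 1) with the filter and 0 without, and 0 to 1 with each library left out. Total counts moved the medians upward, to 0.051 for the 40, 0.053 for licensing, 0.021 for helicase activation and 0.054 for nucleotide supply, as the median of all genes moved to 0.026. On log2(FPKM + 1), with and without the filter alike, the medians were 0.052 for the 40, 0.056 for licensing, 0.073 for the MCM ring, 0.020 for helicase activation and 0.055 for nucleotide supply. On log2(FPKM + 0.1) they were 0.055, 0.058, 0.074, 0.023 and 0.056 in that order. Polymerases stood at 0.045 there and the chromatin and histone messenger genes at 0.098. The median of all genes moved too, to 0.014 on log2(FPKM + 1) with the filter and 0.005 without. On log2(FPKM + 0.1) it was 0.027, beside -0.004 in the main fit. The cause of these shifts was not tested. With each library left out the median ran from 0.017 to 0.036 for the 40 and from -0.002 to 0.034 for licensing. 25 of the 40 kept their sign throughout, and the other 15 had changes of at most 0.033. Among genes with values per library, signs turned with total counts for POLA1 (0.022), MCM5 (0.025) and GINS2 (0.017). They turned on log2(FPKM + 1), with or without the filter, for PCNA (0.002), GINS2 (0.018), MCM5 (0.030) and POLA1 (0.018), and on log2(FPKM + 0.1) for PCNA (0.002), GINS2 (0.019), MCM5 (0.031) and POLA1 (0.024). With each library left out the range crossed 0 for PCNA (-0.051 to 0.007), POLA1 (-0.053 to 0.023), GINS2 (-0.048 to 0.013), GINS4 (-0.016 to 0.051), MCM5 (-0.070 to 0.050), GMNN (-0.038 to 0.101), CCNE2 (-0.038 to 0.077) and RB1 (-0.146 to 0.004). Over all alternatives it also crossed 0 for POLD1 (-0.085 to 0.045), E2F7 (-0.090 to 0.063), CDC6 (-0.006 to 0.042), CDC45 (-0.015 to 0.046) and MCM10 (-0.020 to 0.028).

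With the replicate number as a block, 0 of the 40 were called in either direction, the median was 0.023, and CCNE1 kept its call (adjusted p = 0.0129). The labels share only a number: same-numbered libraries had correlations of deviations of 0.00724, 0.0555 and -0.00039, and not every library correlated best with its own number. Depth limits E2F2 most, with 288 counts in its lowest library.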
